A study of Mus musculus with 8 samples.

Results

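The circadian clock was examined in brown adipose tissue (BAT), which burns fuel to make heat, through 10 genes taken by name. They were Arntl (also called Bmal1), Clock and Npas2 of the positive arm, Per1, Per2, Per3, Cry1, Nr1d1 and Nr1d2 of the negative arm, and the clock output gene Dbp. All 10 were found by Ensembl identifier among the 31053 genes of the count table, and 8 of them passed the filter on low counts, which left 9264 genes for testing. Arntl and Npas2 did not pass it and were tested separately. Bulk RNA-seq had been done on BAT of 4 wild-type (WT) and 4 db/db samples, both labelled as 8 weeks of age and strain C57BL6/J. Per the study's methods, WT animals were C57BL6/J males. The db/db animals were B6.BKS(D)-Leprdb/J males, which carry the mutated leptin receptor gene in every cell of the body and become obese and diabetic. The methods name Charles River as the source of WT and Jackson as that of db/db, whereas the study's resource list gives Jackson for both. Whether the breeder differed with genotype could therefore not be settled, and littermates are not mentioned for these groups. The mice lived on an inverted light-dark cycle and tissue was taken after a fast. The hour at which each animal was sampled is not given in the sources used here, so each library shows 1 unknown moment of the daily cycle, and whether both genotypes were sampled at the same hour could not be checked.

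In mammals, CLOCK or its paralog NPAS2 pairs with BMAL1, the product of Arntl, and binds E-boxes in the promoters of Per, Cry and Nr1d genes. PER and CRY proteins then hold this activator back, while REV-ERB alpha and REV-ERB beta, encoded by Nr1d1 and Nr1d2, repress Arntl at RORE elements that ROR receptors use to activate it. DBP and its relatives TEF and HLF activate genes with D-boxes, which NFIL3 represses. Transcripts of most of these genes swing over the day, with Arntl high when Nr1d1 and Dbp are low. In brown fat, REV-ERB alpha is known as a repressor of Ucp1, the uncoupling protein of thermogenesis.

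WT libraries held 2374079 to 2615009 counts and db/db libraries 2382722 to 3240074. Levels are given in CPM, that is, counts relative to the library's counts on tested genes after TMM scaling, and a floor of 3 counts corresponded to between 0.902 and 1.33 CPM. The floor covers counting error only, and reads copied by PCR may be among the counts. The labels name the stromal vascular fraction as cell type and BAT as tissue. Transcripts of mature adipocytes were abundant in every library, with 2455 to 6487 counts of Ucp1 and 2951 to 7021 counts of Adipoq, so the data go against a fraction free of adipocytes, and the samples are called BAT here. All 6 macrophage and all 8 skeletal muscle markers examined rose in db/db. The summed level of the macrophage markers was 39.1 to 67.2 CPM in WT and 269 to 509 CPM in db/db, and that of the skeletal muscle markers was 350 to 1173 CPM in WT and 1682 to 8447 CPM in db/db. Replicate 1 of db/db stood apart from the other db/db libraries. The chi-square over degrees of freedom was 11.3 to 14.0 for its pairs with them, against 5.80 to 7.72 among the others, and 30.7% of its counts were on mitochondrially encoded genes, against 36.8 to 37.6%. Without it, edgeR called 2250 of 9385 genes (24.0%), among them 1 of the 8 clock genes, Nr1d1 (log2 fold change 0.86, adjusted p 0.0202), and, of the lists described after the clock genes, 3 of 17 partner and 3 of 10 output genes. In such bulk samples, fewer cells of a type and less RNA per cell cannot be told apart.

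Of the 8 clock genes tested, 1 rose in db/db BAT and 0 fell. The riser was Nr1d1, at 1.79-fold the WT level. With edgeR, 27.7% of all tested genes passed an adjusted p of 0.05, 15.8% as higher and 11.9% as lower in db/db, and the clock genes stood at 12.5%. The log2 fold change was below 0 for 7 of the 8 and above 0 for 1, with a median of −0.24 against 0.01 over all tested genes. Of all 9264 tested genes, 4597 were below 0 and 4667 above 0. An unadjusted edgeR p under 0.05 was reached by 3 of the 8, Clock, Cry1 and Nr1d1, against 3602 of the 9264 tested genes. Libraries of the genotypes were fully apart for 0 of the 8 clock genes, against 28.1% of all tested genes.

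**Figure D1:**
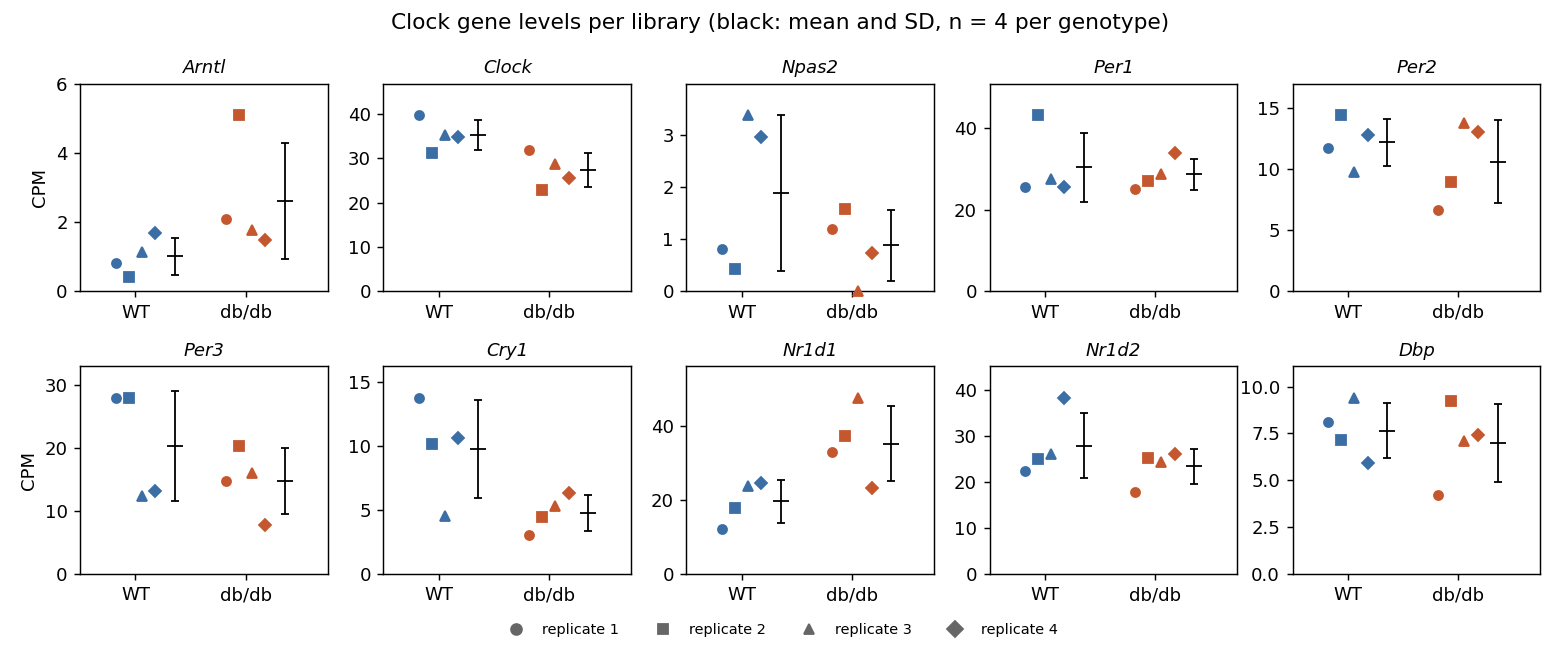
Level of each of the 10 clock genes (vertical axis, CPM from 0) in the 4 WT (blue) and 4 db/db (orange) libraries, with replicates marked by symbol and the mean and SD in black. Nr1d1 averaged 19.5 CPM in WT and 35.1 CPM in db/db, and the libraries of the genotypes overlap for each of the 10 genes.

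In the positive arm, Arntl encodes BMAL1, the obligate partner of CLOCK. Arntl (ENSMUSG00000055116, chr7:113207465-113314126, mm10, plus strand) had 2, 1, 3 and 4 counts in WT replicates 1 to 4 and 7, 16, 4 and 4 counts in db/db replicates 1 to 4. These correspond to 0.809, 0.422, 1.13 and 1.70 CPM in WT and to 2.11, 5.09, 1.77 and 1.49 CPM in db/db. The lowest db/db library lay below the highest WT library, and db/db replicate 2 held most of the db/db counts, with 31 summed over the 4 libraries and 15 without it, against 10 in WT. Mean log2 CPM with a prior count of 2 exceeded that of WT by 0.87 in db/db, a difference that missed the threshold (exact permutation p = 0.0571, two-sided, n = 4 each), where the smallest p the design allows is 0.0286. When all 16410 genes with a count entered the fit, the edgeR adjusted p of Arntl was 0.251. Without db/db replicate 2 the difference in mean log2 CPM was 0.56, and 3 of the 4 WT libraries held 3 counts or fewer.

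Npas2 (ENSMUSG00000026077, chr1:39193731-39363236, plus strand), the paralog that can stand in for CLOCK, was as sparse. It had 2, 1, 9 and 7 counts in WT and 4, 5, 0 and 2 counts in db/db, or 19 and 11 in sum. Mean log2 CPM was lower by 0.61 in db/db, with overlapping libraries (−0.61, exact two-sided permutation p = 0.314, n = 4 each). The difference was −0.28 without db/db replicate 3 and −0.95 without WT replicate 2, and −0.996 and −0.40 with prior counts of 0.5 and 5.

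Clock (ENSMUSG00000029238, chr5:76209868-76304792, minus strand), which encodes the DNA-binding partner of BMAL1, stood at 39.7, 31.2, 35.3 and 34.8 CPM in WT and at 31.9, 22.9, 28.8 and 25.7 CPM in db/db. A single db/db library, replicate 1, reached into the WT range, and there it exceeded only WT replicate 2. Clock averaged 35.3 ± 3.45 CPM in WT and 27.3 ± 3.89 CPM in db/db (SD, n = 4 each). The db/db level was 0.775 times that of WT, with a 95% interval of 0.601 to 0.999, and it did not pass after adjustment over all genes (edgeR log2 fold change −0.37 with SE 0.17, adjusted p 0.127).

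Among the negative arm genes, Nr1d1 was the one that passed the test. Nr1d1 (ENSMUSG00000020889, chr11:98767932-98775333, minus strand) encodes the heme-binding receptor REV-ERB alpha and is itself an E-box target. RefSeq on GRCm38.p6, the build of the count table, gives 1 start for it, and the stretch upstream of that start, chr11:98775380-98775425 on the minus strand, lies outside annotated genes. It is shown because Nr1d1 was the member that changed, and the capitals mark the E-box variant CACGTT, read here on its other strand, whose first base lies 28 bases before the start.
Nr1d1: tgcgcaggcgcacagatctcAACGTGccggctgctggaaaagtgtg
In WT, Nr1d1 had 12.1, 17.7, 23.7 and 24.6 CPM in replicates 1 to 4, from 30, 42, 63 and 58 counts. In db/db it had 32.8, 37.2, 47.4 and 23.1 CPM, from 109, 117, 107 and 62 counts. WT libraries thus held at most 63 counts and db/db replicates 1 to 3 at least 107, while db/db replicate 4 lay within the WT range, below WT replicates 3 and 4. The mean was 19.5 ± 5.80 CPM in WT and 35.1 ± 10.1 CPM in db/db (SD, n = 4 each), a 1.79-fold rise with a 95% interval of 1.25 to 2.56 (edgeR log2 fold change 0.84 with SE 0.25, adjusted p 0.0166).

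The call for Nr1d1 rested on single libraries. The edgeR adjusted p was 0.0607 without WT replicate 1, 0.0501 without WT replicate 2 and 0.0665 without db/db replicate 3, with log2 fold changes of 0.64, 0.78 and 0.66. Over the 11 alternative fits on all libraries it ran from 0.00233 to 0.813. Nr1d1 ends within Thra, the thyroid hormone receptor alpha gene on the opposite strand, and 263 of its 3077 exon bases, or 8.55%, are shared. The sources do not say whether strand was used in counting, so reads there cannot be assigned with certainty. The share of reads in these bases was not measured and may differ from the share of bases. Thra itself averaged 286 ± 37.7 CPM in WT and 228 ± 31.1 CPM in db/db (SD, n = 4 each; log2 fold change −0.33, edgeR adjusted p 0.0931).

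Skeletal muscle markers were higher in db/db as well. The 8 markers, among them the skeletal actin gene Acta1, the muscle creatine kinase gene Ckm and the fast myosin genes Myh1 and Myh4, all rose. Their summed level was 350, 736, 471 and 1173 CPM in WT replicates 1 to 4 and 8447, 2389, 3860 and 1682 CPM in db/db replicates 1 to 4. Within a genotype the order of libraries was the same in part. Replicate 4 of db/db and replicate 1 of WT were lowest in both measures, but db/db replicate 1, with the most muscle marker RNA, had less Nr1d1 than db/db replicates 2 and 3, and WT replicate 2 had more muscle marker RNA and less Nr1d1 than WT replicate 3. With the mean log2 level of these markers as a covariate, Nr1d1 had a log2 fold change of 0.27 and an edgeR adjusted p of 0.813. That score did not overlap between the genotypes, at most 6.83 in WT and at least 7.12 in db/db (mean log2 CPM), so covariate and genotype overlap in part, and the fit called 479 genes in all where the fit on genotype alone called 2568. The summed macrophage and fibroblast markers likewise stood higher in every db/db than in every WT library, with fibroblast sums of 120 to 153 CPM in WT and 301 to 690 CPM in db/db. The sums of 4 red blood cell markers overlapped, at 3087 to 8669 CPM in WT and 6435 to 16921 CPM in db/db. Their 4 estimates were above 0, and Hbb-bt passed (log2 fold change 0.81, edgeR adjusted p 0.0433). The part of these cells in the level of Nr1d1 was not tested.

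**Figure D2:**
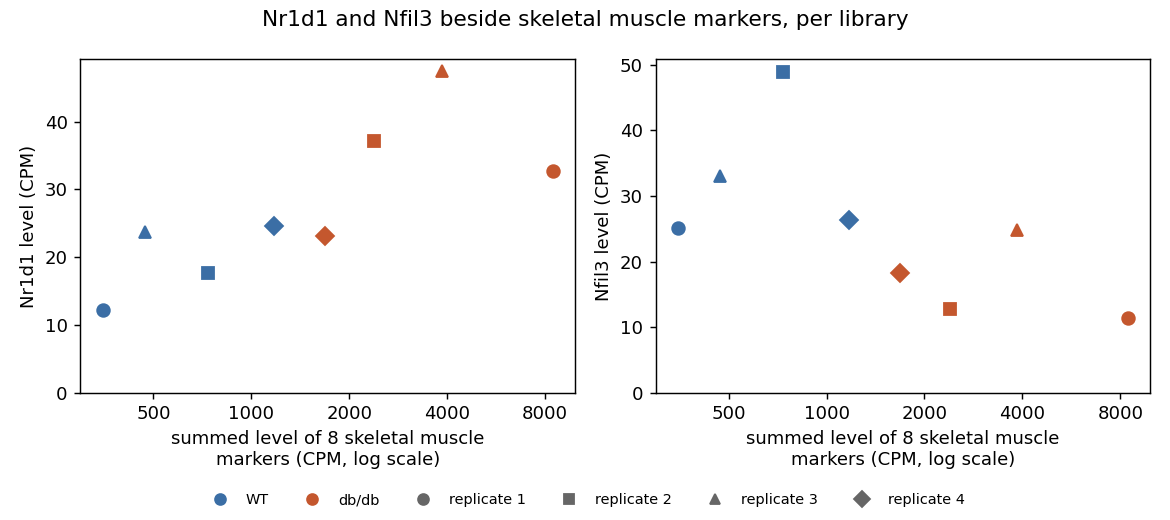
Level of Nr1d1 (left) and of the clock partner gene Nfil3 (right) in CPM on the vertical axes, against the summed level of 8 skeletal muscle markers in CPM on a log scale, with 1 point per library, WT in blue and db/db in orange. WT libraries sit at 350 to 1173 CPM of muscle markers and db/db libraries at 1682 to 8447 CPM, and db/db replicate 4, with 23.1 CPM of Nr1d1, lies next to WT replicate 4 with 24.6 CPM.

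Nr1d2 (ENSMUSG00000021775, chr14:18204054-18239127, minus strand) encodes REV-ERB beta, which shares targets with REV-ERB alpha. Its levels were 22.3, 24.9, 25.9 and 38.2 CPM in WT and 17.7, 25.1, 24.4 and 26.0 CPM in db/db. Apart from WT replicate 4 at the top and db/db replicate 1 at the bottom, the libraries of both genotypes covered the same range. The means were 27.8 ± 7.09 and 23.3 ± 3.78 CPM (SD, n = 4 each), a ratio of 0.837 with a 95% interval of 0.615 to 1.14 (edgeR log2 fold change −0.26 with SE 0.21, adjusted p 0.399), and the log2 value was −0.079 without WT replicate 4 and −0.15 without db/db replicate 1. A rise in Nr1d2 as large as the 1.79-fold estimate for Nr1d1 lay outside this interval.

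Cry1 (ENSMUSG00000020038, chr10:85131700-85185064, minus strand), the strong repressor of CLOCK and BMAL1, had the lowest estimate of the 8 tested genes and just missed the threshold. Its upstream stretch, chr10:85185089-85185153 on the minus strand of GRCm38.p6 and outside annotated genes, is shown because it held both forms of E-box. The capitals mark an E-box variant 79 bases and a canonical E-box (CACGTG) 60 bases before the RefSeq start.
Cry1: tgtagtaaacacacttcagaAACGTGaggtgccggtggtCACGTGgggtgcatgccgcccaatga
Cry1 stood at 13.8, 10.1, 4.51 and 10.6 CPM in WT and at 3.01, 4.45, 5.32 and 6.32 CPM in db/db, from 12 to 34 counts in WT and 10 to 17 in db/db. WT replicates 1, 2 and 4 lay above all db/db libraries, and WT replicate 3 lay among the db/db values. The means were 9.75 ± 3.85 CPM in WT and 4.78 ± 1.40 CPM in db/db (SD, n = 4 each), a ratio of 0.488 with a 95% interval of 0.280 to 0.848 (edgeR log2 fold change −1.04 with SE 0.38, adjusted p 0.0504). DESeq2 put it past the threshold at an adjusted p of 0.0437, as did edgeR without WT replicate 3, at 0.0119, and without db/db replicate 4, at 0.0451. Over the 11 alternative fits on all libraries it ran from 0.0272 to 0.751, the latter with the muscle marker covariate described beside Nr1d1, where the log2 fold change of Cry1 was −0.54.

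The Per genes, whose proteins carry CRY into the nucleus and start repression, gave no call. Per1 (ENSMUSG00000020893, chr11:69095217-69109960, plus strand) responds to light and hormonal cues as well as to CLOCK and BMAL1. In WT it had 25.5, 43.0, 27.4 and 25.5 CPM and in db/db 25.0, 27.0, 28.8 and 33.9 CPM. WT replicate 2 was the highest library, and the other WT libraries lay within the db/db range. Per1 averaged 30.4 ± 8.51 CPM in WT and 28.7 ± 3.80 CPM in db/db (SD, n = 4 each; ratio 0.943, 95% interval 0.701 to 1.27, edgeR adjusted p 0.801). The log2 fold change was −0.08 and turned to 0.12 without WT replicate 2.

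Per2 (ENSMUSG00000055866, chr1:91415982-91459324, minus strand) had 11.7, 14.3, 9.77 and 12.7 CPM in WT and 6.62, 8.91, 13.7 and 13.0 CPM in db/db. Replicates 1 and 2 of db/db lay below all WT libraries and replicates 3 and 4 within their range. The ratio of db/db to WT was 0.860 with a 95% interval of 0.569 to 1.30 (edgeR log2 fold change −0.22 with SE 0.28, adjusted p 0.615). With a library left out, that value ran from −0.37 to −0.046, the latter without db/db replicate 1, and the muscle covariate turned it to 0.065. Per3 (ENSMUSG00000028957, chr4:151003652-151044665, minus strand, inside the span of Camta1 on the same strand but sharing no exon with it) had 27.9, 27.9, 12.4 and 13.2 CPM in WT and 14.7, 20.4, 16.0 and 7.81 CPM in db/db. WT fell into a high and a low pair, with most db/db libraries between them, and the ratio was 0.729 with a 95% interval of 0.460 to 1.15 (edgeR log2 fold change −0.46 with SE 0.31, adjusted p 0.306). With a library left out, the log2 fold change of Per3 ran from −0.66 to −0.25, the latter without db/db replicate 4.

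Upstream letters of Per1 and Per3 are shown because, of the clock genes searched, these 2 held D-boxes. For Per1, the capitals mark an E-box 166 bases before a RefSeq start, chr11:69098763-69098808 on the plus strand, within the span of Per1 but outside its exons, and a D-box (TTATGNAA) 24 bases before that start, chr11:69098915-69098942, in an exon of another Per1 transcript. For Per3, they mark a pair of D-boxes 205 and 158 bases before the start, chr4:151044796-151044890 on the minus strand, within Camta1.
Per1 E-box: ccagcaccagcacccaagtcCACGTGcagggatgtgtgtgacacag
Per1 D-box: gggcctggcaTTATGCAAcccgcctccc
Per3 D-boxes: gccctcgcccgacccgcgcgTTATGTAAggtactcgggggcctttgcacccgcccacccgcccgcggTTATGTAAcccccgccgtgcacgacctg
In the 250 bases before each RefSeq start, both strands were searched for the E-box CACGTG, its variant CACGTT, the D-box TTATGNAA, the RORE core TAGGTCA and the cyclic AMP response element TGACGTCA, and the motifs marked do not overlap each other. Of the 10 clock genes 9 had an entry, with 13 windows in all, and 4 held at least 1 of the motifs. Among 32851 promoter windows of the same length, 6.02% held the E-box, 3.85% the variant, 3.07% the D-box, 2.23% the RORE core and 1.55% the cyclic AMP response element. Motif matches describe letters in this window only. Nr1d1, whose level rose, and Cry1, whose estimate was the lowest, both had an E-box variant there.

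Dbp (ENSMUSG00000059824, chr7:45705088-45710203, plus strand), a textbook clock output that activates D-box genes, had 8.09, 7.17, 9.39 and 5.94 CPM in WT and 4.21, 9.23, 7.09 and 7.44 CPM in db/db, from 14 to 29 counts a library. All but the lowest db/db library, replicate 1, lay within the WT range. The ratio was 0.909 with a 95% interval of 0.561 to 1.47 (edgeR log2 fold change −0.14 with SE 0.33, adjusted p 0.799), and the log2 value turned to 0.047 without db/db replicate 1 and to 0.68 with the muscle covariate. Dbp shares 539 of 2993 exon bases, or 18.0%, with Sphk2 on the opposite strand, which had a log2 fold change of −0.03, so counts at its end are uncertain. Here too the share of reads in the shared bases was not measured.

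To compare the arms, log2 CPM of a negative arm gene or of Dbp was subtracted from that of a positive arm gene within each library. This removes the scaling between libraries except for its part in the prior count, which weighs most at low counts such as those of Arntl. These differences are given without a test. Arntl minus Cry1 was higher in db/db by 1.74, Arntl minus Per3 by 1.29, Arntl minus Nr1d2 and Arntl minus Per2 by 1.10, Arntl minus Dbp by 1.02 and Arntl minus Per1 by 0.92. Arntl minus Nr1d1 differed by 0.04. Of these 7 differences, the one with Nr1d2 kept the genotypes apart, at −4.45 to −3.83 in WT and −3.58 to −2.15 in db/db, and all of them carry the sparse counts of Arntl. Arntl minus Per1 was 0.58 without WT replicate 2 and 0.59 without db/db replicate 2, and Arntl minus Per2 was 0.73 without db/db replicate 2. Over prior counts of 0.5 and 5 and RLE scaling, Arntl minus Cry1 was 1.35 to 2.12 and Arntl minus Per3 0.98 to 1.62. In the same runs the difference was 0.81 to 1.42 for Nr1d2, 0.79 to 1.42 for Per2 and 0.71 to 1.34 for Dbp. For Per1 it was 0.64 to 1.23. Arntl minus Nr1d1 ran from −0.22 to 0.31 with a library left out and from −0.20 to 0.33 with prior counts of 5 and 0.5, so its direction was not settled. Clock minus Nr1d1, chosen after its values were seen, was 0.49 to 1.65 in WT and −0.70 to 0.15 in db/db, without overlap and lower by 1.19 on average (−1.19). Clock against the other negative arm genes and Dbp gave differences between −0.31 and 0.51, with overlapping libraries in each case.

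A list of 21 further genes of the clock loops, their kinases, ubiquitin ligases and corepressors was counted next. Of these, 17 were tested, 2 fell in db/db (11.8%, against 11.9% of all tested genes) and 0 rose, with a median log2 fold change of −0.22. The count depended on the libraries and the fit, with 1 called without WT replicate 2, 4 without WT replicate 3, 5 without db/db replicate 3, 4 with all genes with a count or the library total as the scale, and 0 with the muscle covariate. Ciart, Rorb, Fbxl21 and Timeless did not pass the count filter. The genes that fell were Nfil3 and Tef, an antagonist and an activator at D-boxes.

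Nfil3 (ENSMUSG00000056749, chr13:52967209-52981073, minus strand), also known as E4BP4, is a repressor at D-boxes and a known target of REV-ERB alpha. The letters before its start, chr13:52981040-52981061 on the minus strand within an annotated Nfil3 exon, are shown because a RORE core, read on its other strand, lies 12 bases before that start.
Nfil3: cgctcggaacTGACCTActaac
Nfil3 had 25.1, 49.0, 33.1 and 26.3 CPM in WT and 11.4, 12.7, 24.8 and 18.2 CPM in db/db. All db/db libraries lay below all WT libraries, with db/db replicate 3 just under WT replicate 1. Nfil3 fell from 33.4 ± 11.0 to 16.8 ± 6.11 CPM (SD, n = 4 each), to 0.496 of the WT level (edgeR log2 fold change −1.01 with SE 0.27, adjusted p 0.00838). Its libraries did not overlap between the genotypes, which held for 1 of the 17 tested genes of this list, against 28.1% of all tested genes. With the muscle marker covariate, its log2 fold change was −0.92 and its edgeR adjusted p 0.345, the highest of any alternative run for it.

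Tef (ENSMUSG00000022389, chr15:81802421-81826863, plus strand), which encodes a D-box activator related to DBP, has a pair of RefSeq starts, and an E-box lies 127 bases before one and 138 bases before the other. They are shown because Tef is an E-box bearing gene that fell, at chr15:81802536-81802561, in an exon of Tef and of Gm17597 on the opposite strand, and at chr15:81811256-81811301, in an intron of Tef, both on the plus strand.
Tef, upstream start: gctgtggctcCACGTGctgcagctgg
Tef, downstream start: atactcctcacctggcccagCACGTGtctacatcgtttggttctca
Tef had 175, 199, 142 and 163 CPM in WT and 91.5, 77.6, 145 and 127 CPM in db/db, so that db/db replicate 3 reached just above the lowest WT library. Tef fell from 170 ± 23.9 to 110 ± 31.1 CPM (SD, n = 4 each; edgeR log2 fold change −0.63 with SE 0.18, adjusted p 0.0142). The edgeR call was lost without WT replicate 2 (log2 fold change −0.55, adjusted p 0.0512) and with the muscle covariate (−0.54, adjusted p 0.408), both with estimates near that of all libraries, and the overlap with Gm17597 leaves part of its counts uncertain.

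Several partners lay close to the threshold without passing it. The estimate was 1.04 for Bhlhe41 (DEC2, a repressor of E-box genes; edgeR adjusted p 0.0527), −0.37 for the corepressor gene Ncor1, with which REV-ERB alpha works (adjusted p 0.0523), and −0.74 for the D-box activator Hlf (adjusted p 0.0598), all as log2 fold changes. The RORE activator gene Rora had a log2 fold change of 0.13 and Cry2, the paralog of Cry1, one of 0.23, with edgeR adjusted p-values of 0.636 and 0.618. The casein kinase genes Csnk1d and Csnk1e, which set the pace of PER turnover, had log2 fold changes of −0.02 and 0.03.

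**Figure D3:**
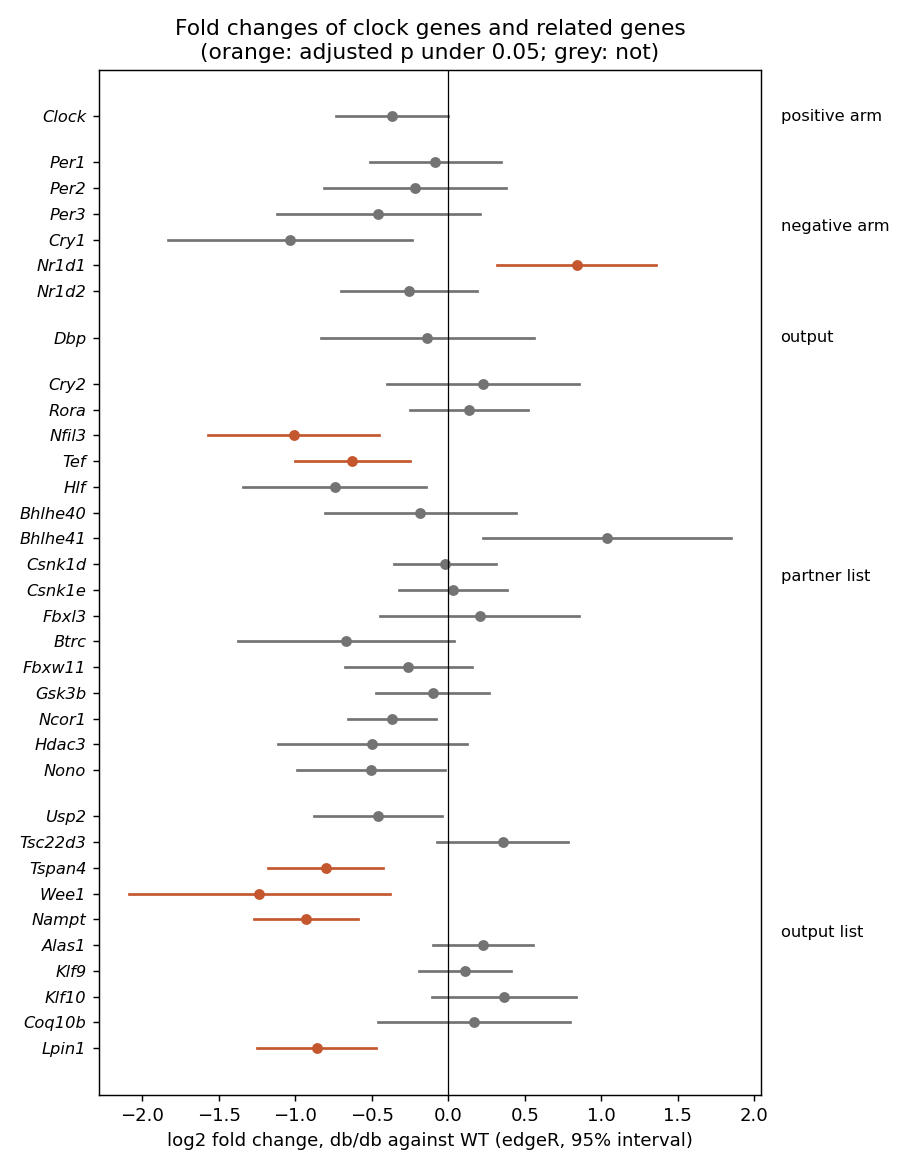
Log2 fold change of db/db against WT (horizontal axis) with its 95% interval for the tested clock genes, partner genes (all but 1) and output genes, ordered by role, with genes past an adjusted p of 0.05 in orange. Nr1d1, at 0.84, is the single orange point to the right of 0, and Nfil3, Tef, Tspan4, Wee1, Nampt and Lpin1 lie to the left of it.

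Of a list of 11 genes known to be driven by the clock in several tissues, 10 were tested, 4 fell in db/db (40.0%, against 11.9% of all tested genes) and 0 rose. The median log2 fold change was −0.17, with 5 genes above 0 and 5 below, and Elovl3 did not pass the count filter. Libraries of the genotypes did not overlap for 4 of the 10 tested genes, against 28.1% of all tested genes, and these were the 4 that fell, Nampt, Lpin1, Tspan4 and Wee1. They are also genes of metabolism, membranes and the cell cycle that answer to signals other than the clock.

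Nampt (ENSMUSG00000020572, chr12:32819545-32853349, plus strand), the rate-limiting enzyme of NAD salvage, had 178, 215, 185 and 193 CPM in WT and 67.1, 113, 112 and 113 CPM in db/db. The lowest WT library was well above the highest db/db library, and db/db replicate 1 lay below the other db/db libraries. Of the list genes that fell, this library was also the lowest of db/db for Lpin1, Tspan4 and Nfil3. Of the clock genes, it was the lowest of db/db for Cry1, Dbp, Per1, Per2 and Nr1d2. Without it, Nampt had a log2 fold change of −0.78, Lpin1 −0.75, Tspan4 −0.71, Nfil3 −0.87 and Cry1 −0.86. Nampt fell from 193 ± 16.0 to 101 ± 22.8 CPM (SD, n = 4 each), to 0.525 of the WT level (edgeR log2 fold change −0.93 with SE 0.16, adjusted p 0.000323). Lpin1 (ENSMUSG00000020593, chr12:16535669-16610966, minus strand), a phosphatidate phosphatase of triglyceride synthesis, had 207, 412, 327 and 301 CPM in WT and 129, 180, 195 and 185 CPM in db/db. WT replicate 1 came close to the db/db range without entering it. Lpin1 fell to 0.552 of the WT level (edgeR log2 fold change −0.86 with SE 0.18, adjusted p 0.00192).

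Tspan4 (ENSMUSG00000025511, chr7:141475240-141493427, plus strand), which encodes a tetraspanin of the plasma membrane, had 207, 165, 111 and 147 CPM in WT and 72.5, 86.2, 110 and 93.7 CPM in db/db. WT replicate 3 and db/db replicate 3 lay next to each other. Tspan4 fell to 0.574 of the WT level (edgeR log2 fold change −0.80 with SE 0.18, adjusted p 0.00264), and it overlaps Chid1 on the opposite strand, so its counts are uncertain. An E-box lay 51 bases before the downstream of its RefSeq starts, whereas the windows of Nampt and Lpin1 held none of the motifs searched. Wee1 (ENSMUSG00000031016, chr7:110122046-110143286, plus strand), the kinase that holds back entry into mitosis, had 11.7, 11.0, 5.26 and 5.94 CPM in WT and 2.71, 2.23, 4.43 and 5.21 CPM in db/db, from 7 to 29 counts. It fell to 0.425 of the WT level (edgeR log2 fold change −1.23 with SE 0.40, adjusted p 0.0298), with WT replicate 3 almost level with db/db replicate 4. The call for Wee1 was lost without WT replicate 1 (edgeR adjusted p 0.102), WT replicate 2 (0.0959), db/db replicate 1 (0.0735) or db/db replicate 2 (0.0833), with log2 fold changes of −1.05, −1.10, −1.12 and −1.05 in that order.

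With the muscle marker covariate, 0 of the genes of the output list passed, at edgeR adjusted p-values of 0.249 for Nampt, 0.172 for Lpin1, 0.442 for Tspan4 and 0.758 for Wee1, which were the highest of any alternative run for these genes. The log2 fold changes in that fit were −0.61, −0.82, −0.50 and −0.58 in the same order, all below 0. The summed level of 6 brown adipocyte markers was 7632 to 9213 CPM in WT and 3054 to 5668 CPM in db/db, lower in every db/db library as for these 4 genes. Of those markers 5 were tested and 4 fell, Cidea, Ucp1, Cox8b and Ppargc1a, while Prdm16 had a log2 fold change of 0.56 (edgeR adjusted p 0.188) and Dio2 did not pass the count filter. Of 4 general adipocyte markers, Plin1 and Fabp4 rose, with log2 fold changes of 0.79 and 0.65, while Adipoq and Lipe had 0.32 and 0.04 and did not pass (edgeR adjusted p 0.112 and 0.868), and the summed level of the 4 overlapped between the genotypes. The summed level of 4 endothelial markers was also lower in every db/db library, at 188 to 218 CPM against 240 to 297 CPM in WT, with Kdr as the 1 marker that fell and Cldn5 at a log2 fold change of 0.31 (edgeR adjusted p 0.248). The part of these cells in the levels of the 4 genes was not tested.

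**Figure D4:**
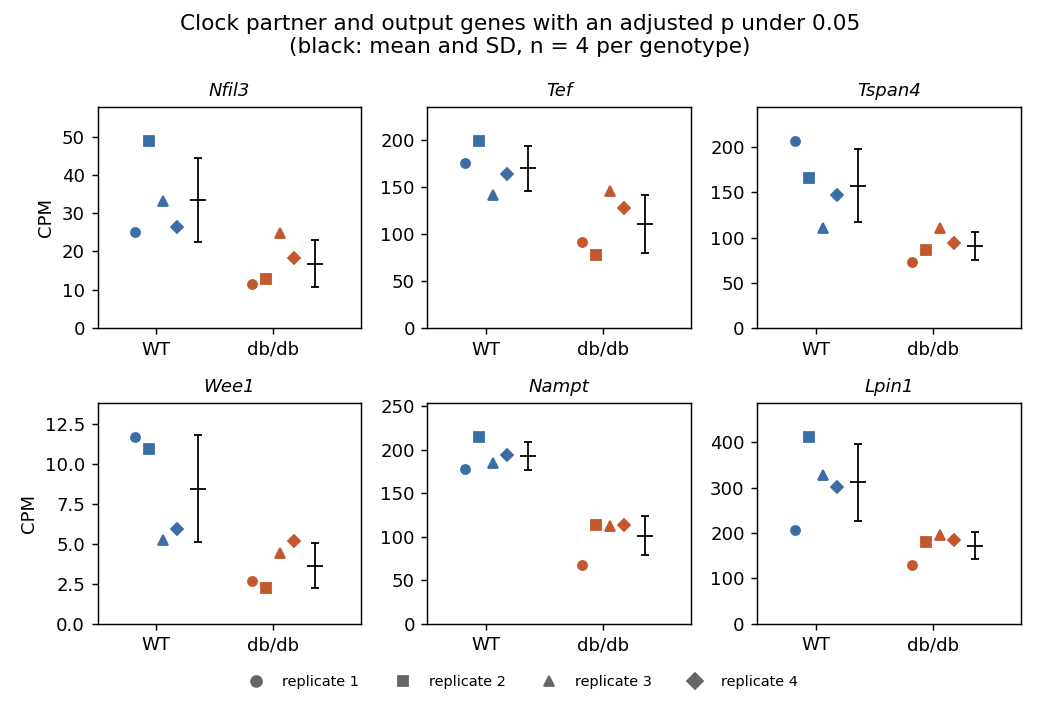
Levels (vertical axes, CPM from 0) of the 6 partner and output genes that fell, in 4 WT (blue) and 4 db/db (orange) libraries, with replicates by symbol and the mean and SD in black. Nampt went from a mean of 193 CPM in WT to 101 CPM in db/db without overlap, while Tef overlaps between the genotypes.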

How the data were processed

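Libraries of BAT from 4 WT and 4 db/db samples were analysed from the raw counts per Ensembl gene that the authors deposited. Per the study's methods, reads were trimmed with bbduk, aligned to mm10 with STAR and counted with HTSeq-count, whereas the submitters' processing notes name Trimmomatic, HISAT2 and DESeq2. The use of strand and of molecular identifiers is not stated. The deposited normalized table and the sample sheet were not used. Of 31053 genes, 31011 were matched to GENCODE M21 on the same build. Genes were filtered with filterByExpr (minimum count 10, minimum total 15), scaled by TMM and tested for genotype alone by edgeR's quasi-likelihood fit (version 4.0.16, R 4.3.3) with Benjamini-Hochberg adjustment at 0.05 over all 9264 genes. Standard errors and 95% intervals were derived from the F statistic. Arntl and Npas2 were compared by exact permutation of log2 CPM (prior count 2). Promoter letters came from RefSeq on GRCm38.p6. DESeq2 1.42.0, limma 3.58.1, other scalings and filters, a muscle covariate, a replicate block and leaving out each sample were alternatives. The procedures were tested on simulated data. The series calls the samples biological replicates without naming the animals, and the study's figure legend gives 4 mice per group for these data. The p-values measure the spread between these samples. Clock genes, partner and output lists, the covariate and the rule for named genes (all clock genes, list genes with an adjusted p under 0.05, and genes most like Arntl and Dbp) were chosen with earlier results of these data known. The values of 1 partner gene, counted in its list, are not reported here. Other list genes near the threshold were named after their values were seen.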

Additional observations from a re-analysis of the deposited data

Results flagged for a closer look

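Among 32 sets of 4 libraries of one genotype examined for a single library far from the others by Dixon's criterion, 2 stood out, where chance gives about 1.6. Per1 in WT replicate 2 stood at 43.0 CPM, from 102 counts, against 25.5 to 27.4 CPM in the other WT libraries, and without this library the log2 fold change of Per1 was 0.12. Nampt in db/db replicate 1 stood at 67.1 CPM, from 223 counts, against 111.7 to 113.5 CPM in the other db/db libraries, and that library also had the highest summed level of skeletal muscle markers, 8447 CPM.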

How the results depend on the processing

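The estimate for Nr1d1 was above 0 in every fit, but its call was lost with the muscle covariate (log2 fold change 0.27, edgeR adjusted p 0.813) and in 3 of the 8 fits that left out a library, which gave 0.64 to 0.99. Among the clock genes, 2 passed with DESeq2, with RLE scaling, with upper quartile scaling, with the library total only, without mitochondrially encoded genes, with all genes with a count and with at least 10 counts in every sample. The second was Cry1, at log2 fold changes of −1.05, −1.05, −1.06, −1.07, −1.05, −1.08 and −0.99 in that order, at −1.30 to −0.84 with a library left out, and at −0.54 with the muscle covariate. The count was 0 with the muscle covariate and 0 to 2 with a library left out. That covariate also gave 0 partner genes, 0 output genes and 479 genes in all, and turned Per1 to 0.058, Per2 to 0.065 and Dbp to 0.68, none of which passed. With a library left out, Per1 ran from −0.18 to 0.12 and Dbp from −0.31 to 0.047, turning sign without WT replicate 2 and without db/db replicate 1. Partner genes called were 4 with all genes with a count and with the library total only, and 1 to 5 with a library left out. Limma-voom and TMMwsp scaling left each clock gene on its side of the threshold. The cause of these changes was not tested. Wee1 had too few counts to enter the fit with at least 10 counts in every sample.

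Replicate numbers 1 to 4 were not treated as pairs in the main fit. The correlations of same-numbered deviations were 0.04, 0.05, −0.08 and −0.01. Such values cannot show whether same-numbered animals were collected or processed together. With the replicate block, 1 clock gene, 2 partner genes and 3 output genes passed, Wee1 being lost at an edgeR adjusted p of 0.0593 with a log2 fold change of −1.22, and 2557 genes passed in all. Counts of 10 to 34 for Cry1 and of 16 or fewer for Arntl and Npas2 limit what could be detected.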

Other observations

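As a description over the 8 libraries, the genes with a mean of at least 10 CPM whose log2 CPM followed Arntl most closely were Mob4 (Pearson r 0.95), Prkx (0.94), Inafm2, Srp9 and Gfm2 (0.92 each), out of 6699 genes searched. Arntl held at most 16 counts in any library, and these values share depth and genotype. Dbp was followed most closely by Elavl1, an RNA-binding protein gene, and Mxi1 (r 0.94 each), Cdk7 (0.93), Tomm7 (0.92) and Smim8 (0.90).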
